A study of Mus musculus with 3 samples.

Results

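The cells described here are sorted retinal glia of the mouse that carried transcripts of Npy, the gene of neuropeptide Y, at 2 days after retinal injury. A cell was taken when Npy reached at least 5 unique molecular identifiers (UMIs, counts of single captured transcripts) per 10000 of the cell's total. It also had to hold under 2 Igfbp2 UMIs per 10000, under 12 of Atf3, Maff and Egr2 together, under 10 of Ccl2, and fewer than 2 Etnppl UMIs as counted. Of 24695 cells, 666 met this rule, with 188 in run 1, 225 in run 2 and 253 in run 3. They are called Npy-expressing cells below. Within each run they were compared with the 8796 cells that met the other limits and held 0 Npy UMIs (2898, 3409 and 2489 cells), called Npy-zero cells. Another 2700 cells with Npy between these bounds entered neither class. Since Npy and the 6 other genes chose the cells, their levels are a description only.

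Neuropeptide Y is a short secreted peptide of neurons and some endocrine cells that signals through G protein-coupled receptors of the Y family, and in the retina it is best known from amacrine cells. Müller glia are the radial glia that span the retina, recycle glutamate and retinoids, buffer potassium and water, and answer injury with gliosis. After injury the Müller glia of fish can return to the cell cycle and make neurons, which those of mammals hardly do unless signals that hold them at rest are overridden.

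All 3 libraries belonged to the same group of adult mice with the genotype Glast-CreERT2+/tg, Yap5SA+/tg and R26R-tdTomato+/tg (the sample labels write the driver as Glast-CreERT). Tamoxifen switched on Yap5SA, a form of the co-activator YAP that the Hippo kinases cannot restrain, together with the red protein tdTomato, in cells that use the Glast promoter, which include Müller glia and astrocytes. The glutamate analogue NMDA, toxic to retinal neurons, was then injected, and 2 days later tdTomato+ cells were sorted and run on 10X Chromium. There was no uninjured group and no group without Yap5SA, so every comparison is between cells of the same run.

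Separate animals are not stated for the 3 runs. The run was fitted as a block, so p-values measure only how the difference between classes within a run varied over the runs. That variation may be technical. Total counts per run were between 94858762 and 122888236 UMIs. The Npy-expressing cells summed to 1661551, 2218389 and 2228809 UMIs, and their median cell held 8199.5, 9560 and 8807 UMIs against 8487.5, 9868 and 8154 in Npy-zero cells. Mitochondrial transcripts took a median of 5.04%, 4.92% and 5.46% of the UMIs of Npy-expressing cells and 5.20%, 5.04% and 5.66% in Npy-zero cells. Between 83 and 108 cell barcodes occurred in both runs of a pair, and 17 of the 666 cells carried such a barcode. Run 2 held no cell of either class with a Y chromosome transcript. In runs 1 and 3, cells with Xist alone made up 42.0% and 36.0% of the Npy-expressing cells and 51.3% and 37.8% of the Npy-zero cells. Cells that the authors kept in their own processed table were a larger part of the Npy-expressing cells (64.4%, 65.3% and 72.3%) than of the Npy-zero cells (46.0%, 43.7% and 48.9%).

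Npy transcripts were spread thinly over the glia and reached high levels in few cells. Among the 12162 cells that met the other limits, the Npy-expressing cells made up 4.66%, 4.87% and 7.21% in runs 1, 2 and 3, a mean of 5.58% ± 1.42 (SD, n = 3 runs). Run 3 stood highest, and its exact binomial 95% interval (6.38 to 8.12%) did not overlap that of run 1 (4.03 to 5.36%) or run 2 (4.27 to 5.53%). These intervals cover counting error only. Within the 666 cells the level ran from 5 to 57.0 UMIs per 10000 with a median of 7.83, and the counts behind it ran from 2 to 62 Npy UMIs per cell with a median of 7. Their summed Npy level was 875, 888 and 938 counts per 1000000 of the class total (CPM). The 170 cells at 10 to under 20 per 10000 and the 22 cells at 20 or more were the upper end of a continuous range. Just inside the limit of 5 stood 169 cells with 5 to under 6 UMIs per 10000, and just outside it 219 cells with 4 to under 5. Aldh1a1 stood at 56.7 ± 30.3 CPM inside and 69.1 ± 15.8 CPM outside, and Prss56 at 549.6 ± 194 and 586 ± 356 CPM (SD, n = 3 runs).

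The glia that the other limits set aside differed in how often they held Npy. In cells with Igfbp2 at its limit or above, Npy reached 5 per 10000 in 0.574%, 0.261% and 0.476% of cells in runs 1, 2 and 3, although these cells were deeper (median 18916 UMIs against 9119 in the cells that met the other limits). In cells with Ccl2 at its limit or above it did so in 4 of 1071 cells. The Igfbp2 set lay below the cells that met the other limits in every run, and the Ccl2 set in runs 2 and 3. In run 1 the Ccl2 set was 0 of 44 cells, and its interval (0 to 8.04%) is too wide to show a lower share. Cells set aside for the early response genes Atf3, Maff and Egr2 reached 5 Npy UMIs per 10000 in 2.02%, 1.48% and 4.09%. Cells set aside for Etnppl did so in 4.15%, 5.67% and 9.04%. The Etnppl cells thus held Npy about as often as the cells that met the other limits, with overlapping intervals in each run.

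**Figure D1:**
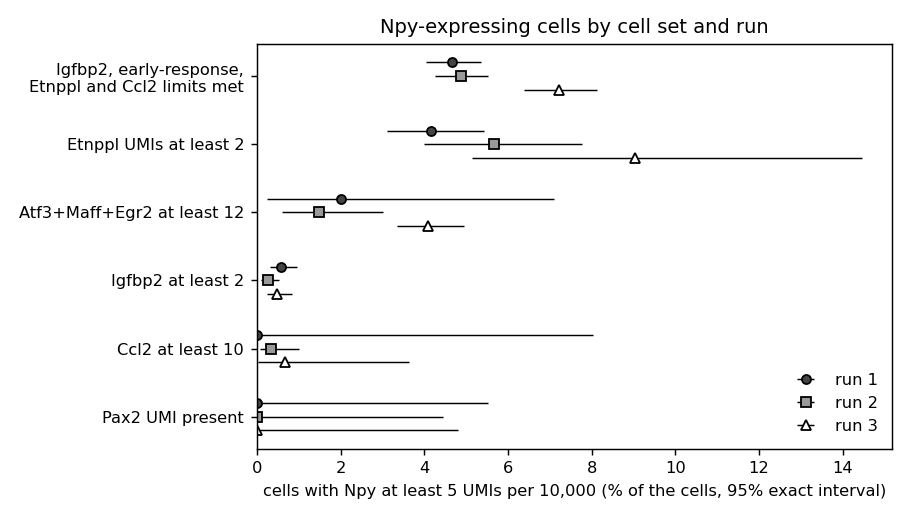
Share of cells with Npy at least 5 UMIs per 10000 (x axis, % of the cells of each set) in 6 sets of cells, with 1 point per run and exact binomial 95% intervals. The sets overlap, since a cell can pass more than 1 limit. The cells that met every other limit sit at 4.66% to 7.21%, and cells with a Pax2 UMI at 0 in each run.

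Cells with a transcript of Pax2, which marks retinal astrocytes and not Müller glia, gave a background share for Npy. None of the 221 such cells reached 5 per 10000, and the 0 allows a share of up to 1.36%. Any Npy UMI was found in 28.1%, 26.2% and 29.0% of the cells that met the other limits, and in 12 of the 221 Pax2 cells (5.43%). After each cell was thinned to 3500 UMIs, the shares were 16.8%, 15.4% and 19.2% and 1 of 221 cells (0.452%). Igfbp2-high cells thinned in the same way held an Npy UMI in 3.03%, 1.94% and 1.99% of cells.

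Müller glial markers were high in the class as a whole. The retinoid carrier gene Rlbp1, a defining Müller marker, stood at 2351, 1994 and 2427 CPM in the Npy-expressing cells of runs 1, 2 and 3. Glul, which makes glutamine from glutamate, stood at 2188, 1736 and 1943 CPM. The 28 listed Müller genes summed to between 40977 and 48748 CPM in Npy-expressing cells and between 39889 and 43657 CPM in Npy-zero cells. None of the 666 cells held a Pax2 UMI, and none held under 10 UMIs of the Müller markers Rlbp1, Glul, Dkk3 and Slc1a3 together, which was true of 2.32% of the Npy-zero cells. The microglial marker C1qa had 1, 2 and 0 UMIs in the summed Npy-expressing cells of the 3 runs, against 2140, 187 and 65 in Npy-zero cells. Cells with 3 or more UMIs of the microglia list were no smaller a share of the Npy-expressing cells, at 3.19%, 1.78% and 1.58% in runs 1, 2 and 3 (6, 4 and 4 cells), against 2.69%, 1.61% and 0.683% of the Npy-zero cells. Amacrine genes, 9 of which were analysed, summed to 19.7 to 21.6 CPM in Npy-expressing cells and 24.8 to 26.9 CPM in Npy-zero cells, so the amacrine list was not higher where Npy was high.

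Summed over the cells of a class in each run and compared within runs, 413 of 12807 tested genes were higher in Npy-expressing cells and 430 were lower (edgeR quasi-likelihood test, adjusted p under 0.05). That is 6.58% of the tested genes, 3.22% higher and 3.36% lower, the background against which each gene group below is to be read. Of the called genes with a mean under 5 CPM, 85 were lower and 4 higher. For groups of genes at low levels that background is therefore too even, and a count of falls carries less weight. A sum cannot tell fewer cells with a transcript from fewer transcripts per cell. The median change over all tested genes was -0.01 on the log2 scale. Most changes were small: of the called genes with a mean of at least 50 CPM, 312 were higher and 171 lower, and 2 of the former and 1 of the latter changed by 1 or more. Without the run as a block, 0 genes were called higher and 7 lower by edgeR (484 and 631 at an unadjusted p under 0.05). All 7 were also called lower with the block, and the other calls were made only with it. DESeq2 with the same design called 231 higher and 122 lower, of 3620 genes that its own filter on low counts left with an adjusted p. Without run 1 edgeR called 132 and 133 genes, and without run 3 164 and 171.

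The 4 marker genes given with the name of these cells, Cdh13, Crym, Trf and Aldoc, were all higher. They were picked on these data, so their levels describe the cells and support nothing. Cdh13, an adhesion protein of the cadherin family that is tethered to the membrane by a lipid, stood at 342, 275 and 267 CPM in the Npy-expressing cells of runs 1, 2 and 3 and at 194, 168 and 146 CPM in Npy-zero cells. Crym, which binds thyroid hormone in the cytosol, stood at 9497, 8155 and 8379 CPM against 6558, 5808 and 5350.3 CPM. Within each run both genes were higher in the Npy-expressing cells, and for neither did the ranges of the classes overlap. Trf, the iron carrier transferrin, stood at 1978, 1998 and 1313 against 1209, 1189 and 815 CPM, lower in run 3 than in the other runs in both classes. Aldoc, a glycolytic aldolase of glia, stood at 1303, 912 and 1011 against 892, 657 and 765 CPM. The fitted changes were 0.81 ± 0.05, 0.57 ± 0.04, 0.73 ± 0.04 and 0.48 ± 0.04 (log2 ± SE).

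The largest rise was in Prss56, a secreted serine protease gene that Müller glia express and whose loss in mice shortens the eye. It stood at 329.8, 473 and 952 CPM in the Npy-expressing cells and at 103, 109 and 297 CPM in the Npy-zero cells of runs 1, 2 and 3. Every Npy-expressing value lay above every Npy-zero value, and run 3 was highest in both classes. The change was 1.83 ± 0.06 (log2 ± SE), 3.56-fold (adjusted p = 2.73e-18, edgeR). A Prss56 UMI was found in 39.9%, 50.7% and 63.2% of Npy-expressing cells, in 16.4%, 19.7% and 30.8% of Npy-zero cells, and in 16 of the 221 Pax2 cells (7.24%), whose median depth was 14785 UMIs. After thinning to 3500 UMIs the shares were 30.9%, 35.6% and 54.2% against 10.8%, 11.998% and 23.0%, with 4 of 221 Pax2 cells (1.81%). Prss56 transcripts were thus detected in only part of the Npy-expressing cells.

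Ptn, which codes the secreted growth factor pleiotrophin, stood at 1012, 873 and 1166 CPM against 532, 516 and 625 CPM, and the classes did not overlap. It rose by 0.87 ± 0.04 (log2 ± SE; adjusted p = 3.61e-14, edgeR). Hes5, a target and effector of Notch signalling, stood at 103, 93.3 and 238 CPM against 40.5, 78.1 and 102 CPM. It was higher in all 3 runs, but least in run 2, and the classes overlapped across runs. Its change was 0.95 ± 0.11 (adjusted p = 1.22e-06, edgeR), and DESeq2 gave an adjusted p of 0.0507, just short of the threshold. Cyp26a1, the enzyme that breaks down retinoic acid, stood at 116, 54.5 and 92.4 CPM against 50.1, 35.4 and 48.6 CPM, again least raised in run 2. It rose by 0.95 ± 0.09 (adjusted p = 1.74e-08, edgeR).

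The other large rises were those of Nkd1, an antagonist and target of Wnt signalling, Fam159b and Tril, a helper of Toll-like receptors. Nkd1 stood at 244, 180.3 and 295 CPM against 137, 113 and 137 CPM and rose by 0.89 ± 0.06 (log2 ± SE). Fam159b stood at 88.5, 195 and 188 against 52.6, 86.7 and 93.8 CPM and rose by 1.03 ± 0.07. Both classes held less Fam159b in run 1 than in the other runs. Tril stood at 97.5, 78.4 and 78.5 against 65.7, 52.5 and 52.8 CPM and rose by 0.58 ± 0.07. A gene on the opposite strand overlaps Tril, and since the labels do not state how strand was used, the reads cannot be told apart with certainty. The same holds for Tshz2, Vax2, Glul, Gfap, Cd9, Slc1a2, Gapdh, Aldoa, Ncam1, Dio2, Cxcl10, Txnip, Tubb4b, Rax, Pax6, Hmga2, Nrarp, Tgfb2, Crim1, Pde6h and S100b. With Crym, Cdh13 and Trf these were the 10 largest rises among called genes that averaged at least 50 CPM and moved alike in all runs.

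The largest fall was in Aldh1a1, which makes retinoic acid from retinal and marks the dorsal retina. It stood at 45.7, 48.2 and 61.0 CPM in Npy-expressing cells and at 278, 278 and 262 CPM in Npy-zero cells of runs 1, 2 and 3. The levels were alike across runs within each class and far apart between the classes. The change was -2.37 ± 0.08 (log2 ± SE), 5.19-fold lower (adjusted p = 2.73e-18, edgeR). In the cells that the authors kept it was -1.45 (adjusted p = 1.91e-07, edgeR). Aldh1a1 has a near-identical neighbour gene, Aldh1a7, and reads can be split between them. Aldh1a7 was less abundant, at 13.2, 8.56 and 12.1 CPM against 6.77, 6.05 and 6.87 CPM, and moved the other way (0.78 ± 0.21, adjusted p = 0.0205, edgeR; named after its values were seen). That call held in 7 of 17 alternatives and was lost without run 1 and without run 3 (adjusted p = 0.226 and 0.221, edgeR) and in the cells the authors kept (adjusted p = 0.0850).

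Another 9 genes made up the 10 largest falls. Gadd45g, a stress-induced growth brake, stood at 135, 274 and 405 CPM in Npy-expressing cells against 343, 449 and 579 CPM, and fell in every run (-0.76 ± 0.08, log2 ± SE). Ifitm3, an interferon-induced membrane protein that blocks virus entry, stood at 386, 682 and 379 against 621, 997 and 640.1 CPM (-0.65 ± 0.05). Its levels were highest in run 2 in both classes. The metallothionein gene Mt2, which binds zinc and copper, stood at 2447, 2724 and 933 against 3147, 4331 and 1462 CPM (-0.55 ± 0.05). Here run 3 was low in both classes, so the classes overlapped across runs though not within any. Tshz2, a zinc finger transcription factor, fell by 0.83 ± 0.10, Hmgb2, a chromatin protein of dividing cells, by 0.78 ± 0.08, and Eif4ebp1, a translation repressor, by 0.61 ± 0.08. Cd24a, a surface protein of progenitors, fell by 0.59 ± 0.10, Pmepa1, a feedback inhibitor of TGF-beta signalling, by 0.57 ± 0.07, and Gbp2, an interferon-induced GTPase, by 0.56 ± 0.09. Hmgb2 missed the threshold without cells high in G2/M genes (-0.38, adjusted p = 0.0843, edgeR). Cd24a missed it without run 1 or run 3 (adjusted p = 0.0922 and 0.0675), Gbp2 without run 2 (adjusted p = 0.0771) and Pmepa1 in the cells the authors kept (adjusted p = 0.352), all by edgeR.

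**Figure D2:**
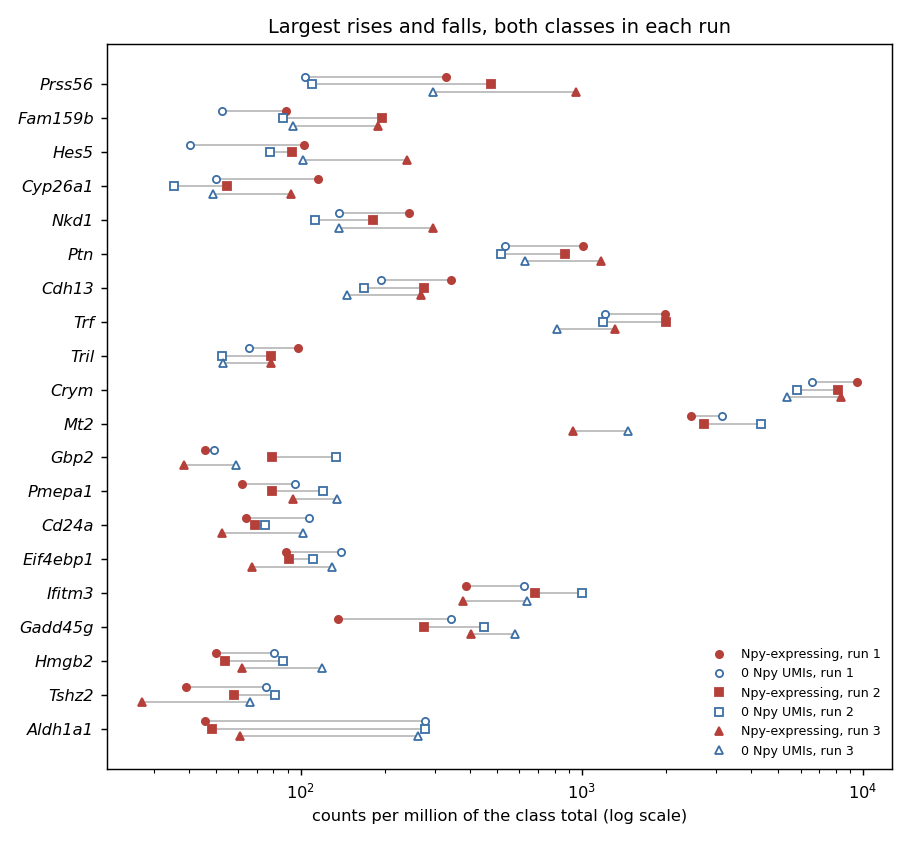
Level of the 10 largest rises and 10 largest falls (x axis, CPM of the class total, log scale) in Npy-expressing cells (filled red) and Npy-zero cells (open blue), with circles for run 1, squares for run 2 and triangles for run 3. A grey line joins both classes of a run. Aldh1a1 shows the widest gap, with 45.7 to 61.0 CPM in Npy-expressing cells and 262 to 278 CPM in Npy-zero cells.

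Genes that mark the dorsal retina were lower in the Npy-expressing cells. Of 8 tested, 4 fell and 0 rose, and the median change of the 8 was -1.54, against -0.01 over all tested genes. With Gdf6, which had 0 UMIs, set to its bound the median was -1.11. DESeq2 gave an adjusted p for 3 of the 8 and called Aldh1a1 alone. Besides Aldh1a1 the genes that fell were Efnb2, Tbx5 and Gdf6. Tbx5 and Gdf6 passed the filter on low counts only through the Npy-zero cells, where they were higher, so their falls are a description. Efnb2, an ephrin ligand that guides retinal axons, had 3, 5 and 10 UMIs in the Npy-expressing cells of runs 1, 2 and 3, or 1.81, 2.25 and 4.49 CPM, against 18.9, 15.5 and 18.0 CPM in Npy-zero cells. It fell by 2.55 ± 0.25 on the log2 scale (adjusted p = 4.29e-08, edgeR). Tbx5, the transcription factor of dorsal fate, had 2, 1 and 1 UMIs, or 1.20, 0.451 and 0.449 CPM against 4.83, 4.22 and 4.26 CPM. It fell by 2.72 ± 0.52 (adjusted p = 9.27e-04, edgeR). Gdf6, a ligand of the BMP family that patterns the dorsal eye, had 0 UMIs in the Npy-expressing cells of every run and 51, 45 and 21 UMIs in Npy-zero cells. Over all runs together it was at least 2.85-fold lower, taking 3 counts over the group as the limit that 0 allows. Its edgeR call (adjusted p = 0.0229) was lost without any 1 of the runs (adjusted p = 0.202, 0.0815 and 0.141).

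The other 4 dorsal genes did not pass, for example Tbx2 with a change of -0.18 ± 0.09 (adjusted p = 0.284, edgeR). Of 7 tested genes of the ventral retina, 0 passed in either direction by edgeR or by DESeq2, which gave an adjusted p for 1 of them, with 1 higher and 1 lower at an unadjusted p under 0.05 and a median change of -0.17. Vax2, the ventral homeobox gene, stood at 12.04, 18.5 and 14.4 CPM against 8.18, 14.0 and 13.6 CPM (0.32 ± 0.16, adjusted p = 0.307, edgeR). No rise of the ventral list was detectable beside the fall of the dorsal genes.

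Among the listed genes of the nasal and temporal retina, Nr2f2 and Foxd1 fell, and DESeq2 gave no adjusted p for either. Nr2f2, which codes the orphan nuclear receptor COUP-TFII of dorsal and peripheral patterning, had 9, 4 and 7 UMIs in the Npy-expressing cells, or 5.42, 1.80 and 3.14 CPM, against 37.8, 33.6 and 31.1 CPM in Npy-zero cells. The classes did not overlap, and the fall was 3.36 ± 0.21 on the log2 scale, 10.2-fold (adjusted p = 5.94e-12, edgeR). Foxd1, the transcription factor of the temporal retina, had 1.20, 2.25 and 2.69 CPM against 5.02, 6.14 and 8.52 CPM and fell by 1.64 ± 0.34 (adjusted p = 0.00211, edgeR). Its classes did not overlap across runs, but the counts were low, and its call was lost without run 3 (adjusted p = 0.0747, edgeR). In the cells that the authors kept, Efnb2 (-1.08, adjusted p = 0.121) and Tbx5 (-0.64, adjusted p = 0.679) did not pass, while Nr2f2 did (-2.87, adjusted p = 1.45e-05), all by edgeR.

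**Figure D3:**
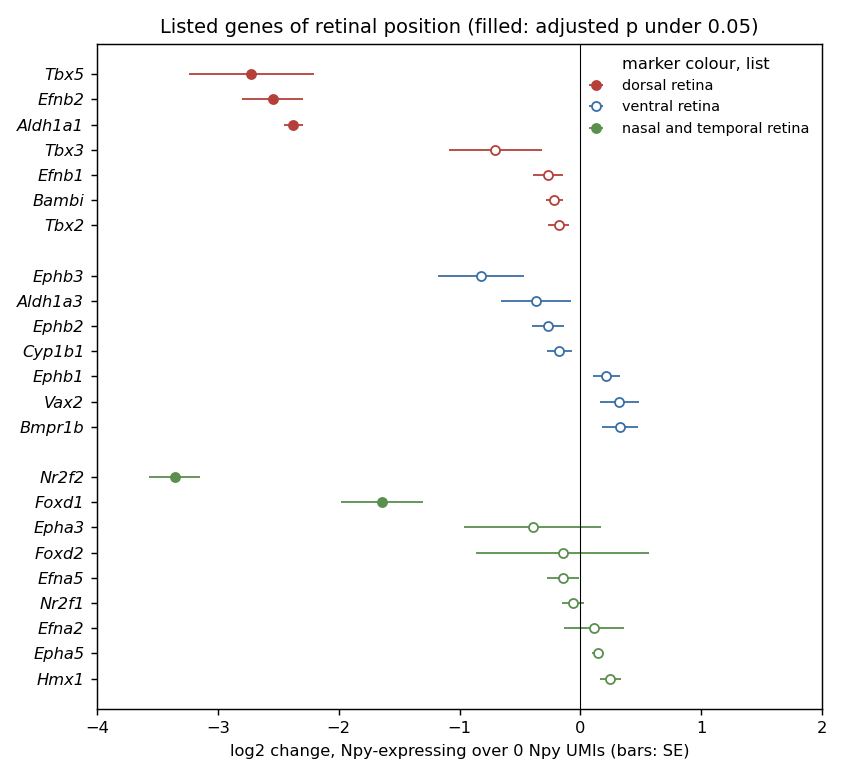
Change between Npy-expressing and Npy-zero cells (x axis, log2, bars are SE) of the listed genes of the dorsal (red), ventral (blue) and nasal or temporal (green) retina, with filled points for an adjusted p under 0.05. Gdf6, with 0 UMIs in the Npy-expressing cells, is not drawn, and not every gene of the lists is shown. Tbx5, Efnb2, Aldh1a1, Nr2f2 and Foxd1 lie between -3.36 and -1.64.

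Levels were also read over steps of Npy, as a description since Npy defines the steps. Aldh1a1 went from 273 ± 8.95 CPM in cells with 0 Npy UMIs to 86.5 ± 9.08 CPM in the 2700 cells above 0 and under 5 per 10000 (SD, n = 3 runs). It stood at 55.0 ± 14.8 CPM in the 474 cells at 5 to under 10, and 45.5 ± 5.35 CPM in the 170 at 10 to under 20. Nr2f2 went from 34.2 ± 3.39 to 8.97 ± 2.61, 3.34 ± 1.96 and 3.14 ± 1.28 CPM over the same steps. Most of the drop of both genes thus lay between 0 UMIs and the lowest Npy step. Ptn went from 558 ± 59.1 to 733 ± 64.6, 982 ± 139 and 1077 ± 146 CPM. Prss56 went from 169.8 ± 109.8 to 313 ± 165, 509 ± 268 and 667 ± 603 CPM, with a wide spread because run 3 was high and run 1 stayed low until the last step. That last step, 20 or more per 10000, held 6, 7 and 9 cells in runs 1, 2 and 3, too few to read an order from.

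**Figure D4:**
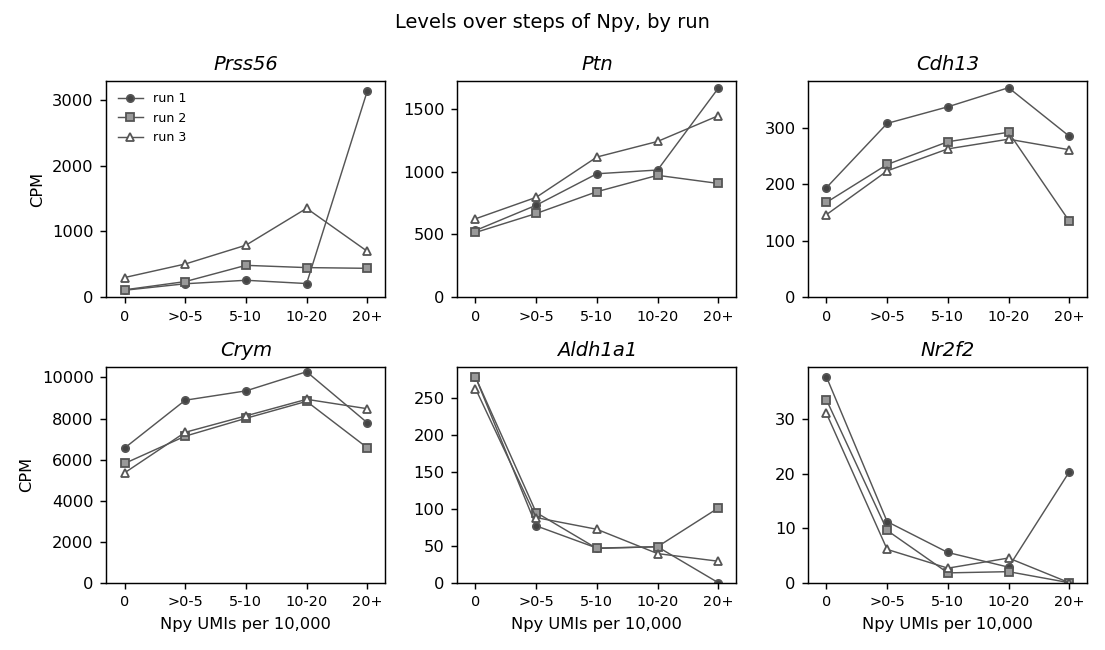
Levels of 6 genes (y axis, CPM) over steps of Npy (x axis, UMIs per 10000 of the cell's total) in cells that met the other limits, with 1 line per run. Aldh1a1 and Nr2f2 fall mostly at the first step. The last step holds 6 to 9 cells per run, which shows in the scatter of the lines there.

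In single cells thinned to 3500 UMIs, Aldh1a1 and Prss56 transcripts divided the glia into sets with different Npy shares. Both genes were picked as the largest fall and rise of this contrast in the same cells, so these shares are a description. In cells with Prss56 and no Aldh1a1, Npy reached 5 per 10000 in 13.2%, 15.6% and 18.7% of cells in runs 1, 2 and 3. In cells with neither it did so in 5.505%, 5.17% and 6.35%, and in cells with both in 3.70%, 4.35% and 4.40%. In cells with Aldh1a1 alone it did so in 0.770%, 1.37% and 1.51%. The order was the same in every run, and the first and last sets lay farthest apart. Without thinning, an Aldh1a1 UMI was found in 17.6%, 24.0% and 24.9% of Npy-expressing cells and 56.9%, 62.1% and 55.7% of Npy-zero cells, against 70 of 221 Pax2 cells (31.7%), which were deeper. After thinning the shares were 8.51%, 14.2% and 11.1%, 44.5%, 45.4% and 43.3% and, over the Pax2 cells, 12.2%. The share in Npy-expressing cells thus stood near that of the Pax2 cells.

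The sequences just before the start sites of 3 genes are shown because Npy chose the cells, Prss56 had the largest rise, and Cyp26a1 breaks down the retinoic acid that Aldh1a1, the largest fall, makes. They are from RefSeq on GRCm38.p6 (mm10), the 250 bases before the start that the RefSeq table uses, on the + strand for all 3 genes. Npy lies at chr6:49822710-49829507, Prss56 at chr1:87183313-87188405 and Cyp26a1 at chr19:37697798-37701536 in GENCODE M21. Those starts are positions 49822710, 87183314 and 37697808, so the windows of Prss56 and Cyp26a1 reach past the GENCODE start. Of the 5 genes given as markers, Npy and Aldoc have windows in the table used. Capitals mark the half-site AGTTCA followed, after 5 bases of any kind, by AGTTCA again, searched on both strands, a form of the element that retinoic acid receptors bind.
Npy, chr6:49822460-49822709: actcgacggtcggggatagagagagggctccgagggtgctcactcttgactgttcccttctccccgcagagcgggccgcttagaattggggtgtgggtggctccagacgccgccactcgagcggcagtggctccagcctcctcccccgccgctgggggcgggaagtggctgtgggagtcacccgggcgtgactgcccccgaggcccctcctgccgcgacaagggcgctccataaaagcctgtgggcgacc
Prss56, chr1:87183064-87183313: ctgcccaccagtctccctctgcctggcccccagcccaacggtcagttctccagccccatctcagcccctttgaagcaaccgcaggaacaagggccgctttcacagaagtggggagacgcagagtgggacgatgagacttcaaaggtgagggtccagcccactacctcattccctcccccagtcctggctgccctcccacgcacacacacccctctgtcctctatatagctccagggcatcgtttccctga
Cyp26a1, chr19:37697558-37697807: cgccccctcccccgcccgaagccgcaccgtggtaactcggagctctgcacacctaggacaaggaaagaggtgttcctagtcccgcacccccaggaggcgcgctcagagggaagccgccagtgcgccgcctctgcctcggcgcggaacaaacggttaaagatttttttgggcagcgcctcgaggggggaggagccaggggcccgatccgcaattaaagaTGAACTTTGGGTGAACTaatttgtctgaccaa
The repeat was found at 32 to 16 bases before the RefSeq start of Cyp26a1, on the strand opposite to the gene. It was in neither of the other sequences nor in the 2 windows each of Aldh1a1 and Aldoc. Over all 32851 windows of the same length 7 held it (0.0213%). The cAMP response half-site TGACG, also searched on both strands, was in 17.8% of all windows and in none of these. A match is a description of letters and shows no binding.

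Genes of Müller glial function leaned higher in Npy-expressing cells. Of 28 tested, 12 rose, Ptn and Cyp26a1 among them, and 1 fell, with a median change of 0.12. DESeq2 also called 12 higher, and 0 lower. Rlbp1 rose from 1659.5, 1495 and 1629.5 CPM in Npy-zero cells to the levels given above (0.51 ± 0.04, adjusted p = 6.33e-10, edgeR), and the classes did not overlap. Car2, a carbonic anhydrase that handles carbon dioxide and acid, stood at 2197, 1786 and 2088 against 1662, 1448 and 1569.9 CPM (0.38 ± 0.04). The membrane proteins Itm2b and Cd9 rose by 0.43 ± 0.04 and 0.37 ± 0.04. Glul did not pass, with 2185, 1741 and 1808 CPM in Npy-zero cells and a change of 0.04 ± 0.04 (adjusted p = 0.638, edgeR). In the cells the authors kept Glul was called higher (0.40, adjusted p = 2.43e-05, edgeR). Sox9, a transcription factor of glia, was the 1 that fell (-0.18 ± 0.05, adjusted p = 0.0257, edgeR). Its call was lost without any 1 of the runs (adjusted p = 0.168, 0.138 and 0.136 without runs 1, 2 and 3, edgeR). The lipid carrier Apoe stood at 8156, 6759 and 8469.5 against 8056, 7297 and 8849.7 CPM and did not pass (-0.04 ± 0.04, adjusted p = 0.650, edgeR). Apoe was called higher in the cells the authors kept (0.50, adjusted p = 1.90e-07, edgeR) and lower in cells thinned to 3500 UMIs (-0.14, adjusted p = 0.0289, edgeR), so its direction turned with the choice of cells.

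Of 10 tested genes of ion and transmitter transport 3 rose and 0 fell (median 0.19): Atp1b2, a subunit of the sodium pump (0.42 ± 0.05), Slc1a2, a glutamate transporter (0.52 ± 0.09), and Slc6a11, a GABA transporter (0.26 ± 0.07). Of 20 glycolysis genes 7 rose and 0 fell (median 0.10), by small amounts. They included Gapdh (0.14 ± 0.04), Aldoa (0.15 ± 0.04), Pkm (0.15 ± 0.04) and Eno1 (0.16 ± 0.04). Without cells of other types or with cone transcripts 4 glycolysis genes were called higher. Of 15 genes of cadherins and adhesion other than Cdh13, Ncam1 (0.31 ± 0.05) and Cadm1 (0.24 ± 0.05), both adhesion molecules of the immunoglobulin family, rose and none fell (median 0.02). Among the listed genes of thyroid hormone handling, Dio2, which activates the hormone, rose (49.95, 54.5 and 52.9 against 32.8, 38.7 and 34.7 CPM, 0.57 ± 0.09). Of 14 genes of iron handling 2 fell and 0 rose (median -0.08), namely the ferritin chain Fth1 (-0.19 ± 0.05) and the haem-degrading Hmox1 (-0.45 ± 0.09). By edgeR the adjusted p missed the threshold without run 1 for Slc6a11 (0.270), Gapdh (0.0943), Aldoa (0.218), Pkm (0.136), Eno1 (0.257), Ncam1 (0.05004), Cadm1 (0.162), Fth1 (0.267) and Hmox1 (0.100), and without run 3 for Slc1a2 (0.0528), Slc6a11 (0.180), Gapdh (0.416), Aldoa (0.360), Pkm (0.491), Eno1 (0.407) and Fth1 (0.468).

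Gliosis genes moved both ways, with 5 of 23 higher, Prss56 among them, and 3 lower (median 0.02). The intermediate filament gene Vim stood at 3549, 3172 and 3037 against 2882, 2855 and 2677 CPM and rose by 0.22 ± 0.04 (adjusted p = 3.59e-04, edgeR). Gfap, the filament by which gliosis is usually read, stood at 866, 699 and 589.6 against 829, 721 and 624 CPM and did not pass (-0.01 ± 0.04, adjusted p = 0.937, edgeR). In the cells the authors kept Gfap was called higher (0.17, adjusted p = 0.0489, edgeR). The calcium-binding S100a6 rose by 0.23 ± 0.04 and the stress-response regulator Nupr1 by 0.34 ± 0.04. In the cells the authors kept the change of S100a6 was -0.0041 (adjusted p = 0.976, edgeR). Vim and Nupr1 kept their direction in those cells but missed the threshold too. Leaving out runs gave an adjusted p above the threshold (edgeR) without run 3 for Vim (0.0573).

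Inflammatory and interferon genes were lower. Of 15 tested cytokine and chemokine genes 7 fell and 1 rose (median -0.36), and of 21 interferon response genes 7 fell and 0 rose (median -0.23). Cxcl10, an interferon-induced chemokine, had 4.81, 36.1 and 16.2 CPM in Npy-expressing cells of runs 1, 2 and 3 and 6.65, 74.6 and 24.6 CPM in Npy-zero cells (-0.88 ± 0.13). Its level differed far more between runs than between classes. Csf1, the growth factor of microglia and macrophages, had 9.03, 8.11 and 6.73 against 12.9, 15.0 and 15.3 CPM (-0.88 ± 0.19), with no overlap of the classes. Nfkbia, the inhibitor and target of NF-kappaB, fell by 0.36 ± 0.08. Il33, an alarm cytokine stored in glial nuclei, was the 1 that rose (587, 558 and 524 against 427, 457 and 413 CPM, 0.37 ± 0.04). Among the interferon genes Isg15, a ubiquitin-like modifier, had 99.3, 167 and 98.3 against 97.1, 274 and 137 CPM (-0.46 ± 0.08), which was not lower in run 1. Bst2, which tethers viruses, changed by -0.24 and B2m, the light chain of MHC class I, by -0.19. The summed microglial transcripts moved with these groups, though the share of cells with 3 or more of them, given above, did not. The 11 microglia genes summed to 38.6 to 55.4 CPM in Npy-expressing cells and 48.2 to 408 CPM in Npy-zero cells, highest in run 1. Without cells of other types or with cone transcripts, 8 interferon and 4 cytokine genes were lower. Calls were lost, with the adjusted p of edgeR in brackets, without run 1 for Nfkbia (0.165) and Bst2 (0.0671), and without run 2 for Cxcl10 (0.132), Nfkbia (0.292) and Isg15 (0.119), and without run 3 for Csf1 (0.131), Bst2 (0.179) and B2m (0.143). DESeq2 called 4 interferon genes and 1 cytokine gene lower.

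Of 11 tested metallothionein and glucocorticoid genes 5 fell and 0 rose (median -0.46). Mt1 stood at 6499, 5088 and 2369 against 7577, 7677 and 3171 CPM (-0.40 ± 0.05), and DESeq2 did not call it (adjusted p = 0.240). Sgk1, a kinase induced by steroids, and Txnip, an inhibitor of thioredoxin, fell by 0.46 ± 0.11 and 0.46 ± 0.09. By edgeR the adjusted p missed the threshold without run 1 for Sgk1 (0.157) and Txnip (0.0812), and without run 3 for Sgk1 (0.363).

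The cell cycle genes that were called were nearly all lower, from low levels. Called genes under 5 CPM were mostly lower whatever their group, as given above. Of 41 S phase genes 10 fell and 0 rose (median -0.60). Of 54 G2/M genes 18 fell and 1 rose (median -0.92). Cdca7, an S phase gene that fell, had 0 UMIs in Npy-expressing cells and passed the filter on low counts only through the Npy-zero cells. Such a gene could only fall, and the other cell cycle genes were not sorted by this, so these counts are a description. Without cells of other types or with cone transcripts, 4 S phase and 14 G2/M genes were lower. DESeq2 gave an adjusted p for 3 and 8 of them, and called 0 S phase genes and 1 G2/M gene lower. Top2a, which untangles chromosomes, had 2, 5 and 7 UMIs in the Npy-expressing cells of runs 1, 2 and 3, or 1.20, 2.25 and 3.14 CPM, against 6.77, 9.57 and 13.5 CPM in Npy-zero cells (-2.14 ± 0.30, adjusted p = 1.25e-05, edgeR). The classes did not overlap. The kinase partners Cks2 and Cks1b fell by 0.93 ± 0.15 and 0.70 ± 0.12, and the tubulin gene Tubb4b was the 1 that rose (0.39 ± 0.04). Leaving out runs gave an adjusted p above the threshold (edgeR) without run 3 for Cks2 (0.0521). Without cycle-high cells Top2a changed by 0.37 (adjusted p = 0.866, edgeR). A Top2a UMI was found in 11 of 666 Npy-expressing cells (1.65%) and in 315 of 8796 Npy-zero cells (3.58%). An Mki67 UMI was found in 23 (3.45%) and 397 cells (4.51%), and in 36 of the 221 deeper Pax2 cells (16.3%), so neither share is read as expression. After thinning, Mki67 was found in 7 and 175 cells (1.05% and 1.99%), lower in run 2 and run 3 and alike in run 1. The cells called cycle-high here, with at least 2 G2/M-list UMIs among 1000 drawn, were 46.7% and 43.4% of the classes. The list holds genes that resting cells express, so these are not counts of dividing cells.

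Of 13 tested retinal progenitor genes 2 rose and 2 fell (median 0.10). The eye field genes Rax and Pax6 rose by 0.26 ± 0.05 and 0.20 ± 0.05, while Hmga2, a chromatin protein of early progenitors, fell with Cd24a. Hmga2 stood at 13.8, 13.5 and 11.2 CPM against 26.1, 25.7 and 27.3 CPM (-1.03 ± 0.15, adjusted p = 1.90e-05, edgeR), with no overlap of the classes. Of 13 tested Notch genes, Hes5 and Nrarp, a feedback inhibitor (0.49 ± 0.12), rose, and 3 fell (median -0.01), among them Id2 (-0.42 ± 0.05) and Id3 (-0.18 ± 0.04), which block neurogenic factors. Of 18 YAP targets 3 rose and 0 fell (median -0.06). Tgfb2, a ligand that restrains retinal progenitors, stood at 449.6, 392 and 396 against 313, 292 and 281 CPM (0.49 ± 0.05) with no overlap, and Crim1, which binds BMPs, rose by 0.47 ± 0.07. The third, Cyr61, stood at 1366, 1395 and 1839 against 1335, 1272 and 1598 CPM (0.14 ± 0.04, adjusted p = 0.0399, edgeR), and missed the threshold without any 1 of the runs. The table has 1 Yap1 row, which does not separate the endogenous gene from the transgene, and it did not pass (19.3, 27.9 and 25.6 against 25.1, 29.6 and 28.9 CPM, -0.18 ± 0.12, adjusted p = 0.496, edgeR). Of 24 genes of the cytoskeleton and matrix 2 rose and 5 fell (median -0.15). Sparc, a secreted matrix protein, rose by 0.49 ± 0.04 and the actin gene Actb fell by 0.16 ± 0.04. Calls were lost, with the adjusted p of edgeR in brackets, without run 1 for Rax (0.0542), Pax6 (0.0970), Nrarp (0.103), Id3 (0.139) and Cyr61 (0.0538), and without run 2 for Id3 (0.0834) and Cyr61 (0.0757), and without run 3 for Pax6 (0.236), Nrarp (0.245), Cyr61 (0.600) and Actb (0.226). In the cells the authors kept Id3 changed by 0.21.

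Some lists had no call by edgeR or by DESeq2, which gave an adjusted p for 5 of the Hippo, 8 of the glial rest and 1 of the cAMP genes below. Of 19 Hippo components 0 passed (0 higher and 1 lower at an unadjusted p under 0.05, median -0.07). Of 10 factors linked to glial rest 0 passed (1 higher and 0 lower, median 0.05), and of 12 genes of the cAMP response, a known inducer of Npy, 0 passed (0 and 0, median -0.10).

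The machinery that makes and stores peptides did not move as a group. Of 12 tested genes 2 rose and 2 fell (median -0.11). Pam, which amidates neuropeptide Y into its active form, stood at 63.8, 98.3 and 79.4 against 69.1, 97.2 and 79.8 CPM (-0.01 ± 0.07, adjusted p = 0.959, edgeR). Scg2, a granin of secretory granules, had 10.2, 36.5 and 21.98 against 13.4, 20.2 and 15.6 CPM (0.53 ± 0.15), and was lower rather than higher in run 1. Cadps, which primes dense-core vesicles, rose by 0.79 ± 0.19. Pcsk1n, an inhibitor of prohormone cleavage, fell by 0.60 ± 0.09. The granin Vgf had 0, 2 and 0 UMIs in the Npy-expressing cells against 88, 57 and 42 in Npy-zero cells. Vgf passed the filter on low counts only through the Npy-zero cells, so its fall is a description. By edgeR the adjusted p missed the threshold without run 1 for Cadps (0.0908) and Vgf (0.391), and without run 2 for Scg2 (0.681), and without run 3 for Scg2 (0.227), Cadps (0.182) and Vgf (0.301). With Npy at least 10, Scg2 changed by -0.92. Of the receptors and relatives of neuropeptide Y, 4 of 9 listed genes were analysed and none passed the filter on low counts. The receptor gene Npy1r had 0 UMIs in Npy-expressing cells and 2, 4 and 2 in Npy-zero cells, too few to compare.

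Photoreceptor transcripts were lower in Npy-expressing cells. Of 13 rod genes 9 fell and 0 rose (median -0.34), and their sum was 1648 to 2101 CPM in Npy-expressing cells and 2067 to 2575 CPM in Npy-zero cells. Pde6g, a subunit of the rod phosphodiesterase, stood at 146, 155 and 109 against 174, 174 and 145 CPM and fell by 0.26 ± 0.06. The disc membrane genes Rom1 and Prph2 fell by 0.24 ± 0.05 and 0.38 ± 0.07. Leaving out runs gave an adjusted p above the threshold (edgeR) without run 1 for Pde6g (0.0922) and Rom1 (0.144), and without run 2 for Rom1 (0.0647), and without run 3 for Pde6g (0.226). In the cells the authors kept Rom1 changed by 0.12. Of 8 cone genes 8 fell, with sums of 34.3 to 55.0 against 107 to 143 CPM, for example Pde6h with 8.43, 15.8 and 11.7 against 49.9, 39.3 and 49.0 CPM. Of 7 microglia genes 5 fell. C1qa, among these, passed the filter on low counts only through the Npy-zero cells, so its fall is a description. DESeq2 gave no adjusted p for the cone genes and 1 for the microglia genes, not called. Without cells of other types or with 3 or more cone UMIs, an alternative added after the data were seen, 0 cone and 0 microglia genes were called and 8 rod genes were called lower. That alternative removes cells by their cone and microglia UMIs, so the loss of the cone and microglia calls was built into it. Under it 303 genes were higher and 288 lower of 12575 (4.7%, 2.41% higher and 2.29% lower). Aldh1a1 then changed by -2.40, Nr2f2 by -3.36 and Prss56 by 1.84. Of 3 tested astrocyte genes 2 rose, S100b (0.57 ± 0.17) and Aldh1l1 (0.33 ± 0.06), both also expressed by Müller glia. Calls were lost, with the adjusted p of edgeR in brackets, without run 1 for S100b (0.146), and without run 2 for S100b (0.183), and without run 3 for S100b (0.217). Pax2 was at 0 UMIs in all Npy-expressing cells.

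The same Npy contrast was then made in cells that the rule leaves out, those with 2 or more Etnppl UMIs under the other limits, an alternative added after the data were seen. Etnppl codes a phospholyase found in astrocytes and Müller glia. The 48, 35 and 11 cells with Npy at least 5 per 10000 were set against 712, 365 and 68 cells with 0 Npy UMIs, with the minimum lowered from 20 to 10 cells per class and run. Of 5717 tested genes 30 were higher and 40 lower (1.22%, namely 0.525% and 0.7%, edgeR adjusted p under 0.05). They come from the same 3 libraries and are not separate replicates. All 20 of the largest rises and falls could be tested there, and 13 passed, each in the same direction. Aldh1a1 fell by 2.91 ± 0.18 (log2 ± SE, adjusted p = 7.91e-25, edgeR) and Prss56 rose by 2.08 ± 0.14 (adjusted p = 2.59e-22). Cyp26a1 rose by 1.69 ± 0.18, Hes5 by 0.92 ± 0.21, Nkd1 by 0.72 ± 0.14, Ptn by 0.65 ± 0.07, Cdh13 by 0.55 ± 0.11 and Crym by 0.30 ± 0.04. Tshz2 fell by 1.31 ± 0.25, Pmepa1 by 1.14 ± 0.21, Ifitm3 by 0.54 ± 0.10, Gadd45g by 0.52 ± 0.12 and Mt2 by 0.23 ± 0.06. Nr2f2 passed as well (-1.89 ± 0.40, adjusted p = 0.00140, edgeR).

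Fam159b (0.07 ± 0.17), Hmgb2 (-0.05 ± 0.22) and Cd24a (0.06 ± 0.21) stood near 0 in the Etnppl cells, and Trf (0.16 ± 0.06), Tril (0.27 ± 0.20), Eif4ebp1 (-0.21 ± 0.20) and Gbp2 (-0.64 ± 0.25) also did not pass. The difference between the contrasts was tested directly for 10386 genes, and 1 passed (edgeR, 661 at an unadjusted p under 0.05). It was Trf, whose change was lower in the Etnppl cells by 0.58 ± 0.09 on the log2 scale (adjusted p = 0.00495, edgeR). For Prss56 the difference was 0.47 ± 0.39, and for Aldh1a1 -0.52 ± 0.30, neither past the threshold.

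**Figure D5:**
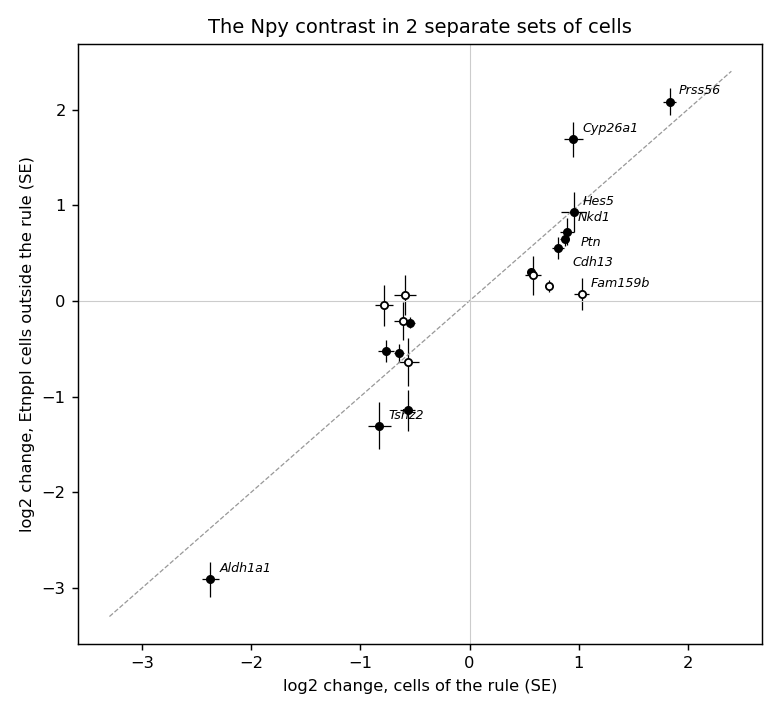
Change between cells with Npy at least 5 per 10000 and cells with 0 Npy UMIs (log2, bars are SE) in the cells of the rule (x axis) and in the Etnppl cells outside it (y axis) for the 20 largest rises and falls. Filled points passed in the Etnppl cells, and the dashed line marks equal change. Aldh1a1 and Prss56 lie at opposite ends in both, and Fam159b near 0 on the y axis.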

How the data were processed

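The deposited counts are UMIs that, per the labels, came from 10X Chromium 3' v2 libraries of tdTomato+ cells. Per the submitters' processing notes Cell Ranger (version not given in the sources used here), Seurat 2.3.4 and mm10 were used. The authors also deposited natural log values for 13511 cells, equal to ln(1 + 10000 × count / total) within 5.00e-07. These served only to mark the cells the authors kept. Columns that matched no sample numbered 0. How strand was used is not stated.

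The cells, markers and gene lists were chosen with earlier results of these data known. A cell needed 500 or more genes and no more than 20% mitochondrial UMIs (24672 cells). No doublet caller was run. Counts were summed per class and run and passed through filterByExpr, TMM scaling and the quasi-likelihood test of edgeR 4.0.16 (R 4.3.3), with the run as a block because both classes of a run share its library, and with Benjamini-Hochberg adjustment over all genes tested. The 7 rule genes were left out after scaling. SE was taken as |change| / sqrt(F). DESeq2 1.42.0 was an alternative. Named genes were the 10 largest rises and 10 largest falls with an adjusted p under 0.05 that averaged at least 50 CPM and moved alike in all runs, leaving out rule, ribosomal, mitochondrial and unnamed predicted genes. Up to 4 called genes of each list, by level, were also named, with the given markers, and Glul, Rlbp1, Gfap, Apoe, Vim, Yap1, Cyr61, Sox9 and Pam. Tbx2, Vax2, Aldh1a7, Npy1r, Top2a, Ifitm2, Cyp26b1 and Pgf, where not covered by that rule, were chosen after their values were seen. Some genes the rule names are not reported here. Positions are from GENCODE M21. On simulated data of 12889 genes the test recovered 82% of 2-fold and 50% of 1.5-fold changes of this comparison, with 2.94% of calls false. The simulation gave all genes the same dispersion and each changed gene the same change in every run. These rates therefore need not hold for the real genes, whose spread differs.

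The alternatives were DESeq2, RLE size factors, no filter on low counts, no block for the run, leaving out each run, every cell, the authors' cells, cells thinned to 3500 UMIs, cells of 8000 to 16000 UMIs, Npy at least 10, and leaving out cycle-high cells, other cell types or shared barcodes. Cells with Xist alone and cells with Y chromosome transcripts alone were also tested. The comparison planned within Igfbp2-high cells was not made, since 11, 7 and 7 cells held Npy there under the other limits, below the minimum of 20.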

Additional observations from a re-analysis of the deposited data

Results flagged for a closer look

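Trf was picked out because its change with Npy differed between sets of cells in a direct test. In the Npy-expressing cells of the rule it rose by 0.73 ± 0.04 (log2 ± SE), and in the Etnppl cells outside the rule it changed by 0.16 ± 0.06 (adjusted p = 0.441, edgeR). The difference, Etnppl cells minus cells of the rule, was -0.58 ± 0.09 (adjusted p = 0.00495, edgeR). Trf stood at 1336 ± 294 CPM in all Etnppl cells and 1071 ± 222 CPM in Npy-zero cells (SD, n = 3 runs).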

How the results depend on the processing

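Of 1704 alternative values of the results reported, 1294 kept their direction and side of the threshold, 381 kept their direction but no longer passed, 2 passed only in the alternative with their direction kept (Glul in cells the authors kept, Apoe in thinned cells) and 27 changed sign, 17 of them of genes not called. The counts of 413 higher and 430 lower genes became 231 and 122 with DESeq2, 163 and 164 in cells thinned to 3500 UMIs, 228 and 222 in cells of 8000 to 16000 UMIs, and 182 and 255 with Npy at least 10. They became 141 and 118 without cycle-high cells, 179 and 152 in Xist cells, and 35 and 29 in Y chromosome cells (runs 1 and 3 only, fewer cells). Without the low-count filter 685 genes were lower. Leaving out 1 run gave 132 to 374 higher and 133 to 374 lower. Without the replicate block, which pairs both classes of a run, 0 were higher and 7 lower. Of the 20 largest rises and falls, 19 kept their call with DESeq2, 15 in Y chromosome cells and 1 without the block. The share of cells meeting the rule was 7.38% in cells the authors kept, 7.42% after thinning and 1.63% with Npy at least 10.

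Signs changed in cells the authors kept for S100a6 (-0.0041), Id3 (0.21), Txnip (0.14), Rom1 (0.12), Gfap (0.17) and Apoe (0.50), the last 2 then being called. Signs also changed for Scg2 with Npy at least 10 (-0.92) and in Y chromosome cells (-0.11), for Top2a without cycle-high cells (0.37), for Rom1 (0.079), Prph2 (0.056) and Vax2 (-0.19) in Y chromosome cells, and for Pde6h without cells of other types or with cone UMIs (0.13), by the construction of that alternative. Of genes near 0 and called in neither, Pam ran from -0.031 to 0.0069 when 1 run was left out and became 0.076 after thinning, 0.045 with Npy at least 10, 0.034 without cycle-high cells and 0.014 in Xist cells. Gfap ran from -0.062 to 0.014 when 1 run was left out (0.010 without run 2) and became 0.025 in cells of 8000 to 16000 UMIs, and 0.088 both without cycle-high cells and in Xist cells. Glul became -0.0015 after thinning and -0.013 without cycle-high cells, and Apoe 0.0057 in cells of 8000 to 16000 UMIs and 0.029 in Xist cells. The cause of the others was not tested. Of the called genes with a mean under 5 CPM, 85 were lower and 4 higher. The comparison planned within Igfbp2-high cells was not run.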

Other observations

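Some genes outside the named groups, chosen after their values were seen, differed between the classes without overlap. Ifitm2, an interferon-induced neighbour and close relative of Ifitm3, had 25.3, 15.8 and 20.2 CPM against 58.3, 54.5 and 50.9 CPM (-1.43 ± 0.12, adjusted p = 1.70e-09, edgeR). In the cells the authors kept it was not called (-0.39, adjusted p = 0.258, edgeR), nor in Y chromosome cells (-0.85, adjusted p = 0.122). It was also called in the Etnppl cells (-1.29 ± 0.32, adjusted p = 0.0114, edgeR). Pgf, a growth factor of the VEGF family, had 19.9, 37.9 and 21.98 CPM against 12.5, 18.8 and 11.5 CPM and rose by 0.92 ± 0.13 (adjusted p = 1.81e-05, edgeR), with run 2 highest in both classes. That call was lost without cycle-high cells (adjusted p = 0.111), in Y chromosome cells (adjusted p = 0.155) and without the block for the run (adjusted p = 0.385), all by edgeR.

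Cyp26b1, which like Cyp26a1 breaks down retinoic acid, had 0 UMIs in the Npy-expressing cells of every run and 78, 83 and 65 UMIs in Npy-zero cells. Over all runs it was at least 5.5-fold lower, taking 3 counts over the group as the limit that 0 allows. It passed the filter on low counts only through the Npy-zero cells, so this is a description. Within the same cells Cyp26a1 was higher and Aldh1a1 lower, so the genes that make and break down retinoic acid did not move in 1 direction.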
